A study of Mus musculus with 8 samples.

Results

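The genes described here are the 3 colony-stimulating factors Csf1, Csf2 and Csf3, the receptor genes Csf1r, Csf2ra, Csf2rb and Csf3r, and the IL-6 family cytokines Il6, Lif and Osm. They were picked by symbol, from what their products do, and make up 10 of the 19084 genes that the array's annotation names. All 10 were found, on 11 probes, because Csf2rb has 2 probes and each other gene has 1. The probe with the highest mean stands for a gene. RNA came from RAW264.7 cells, a mouse macrophage-like line. The shDab2 cells stably carried a lentiviral short hairpin RNA against Dab2, an endocytic adaptor protein, and the shLuc control cells carried a hairpin against luciferase, which mouse cells lack. Both lines were given LPS, the bacterial endotoxin sensed by TLR4, for 6 h, or PBS as the vehicle. The 4 groups are shDab2 with LPS, shLuc with LPS, shDab2 with PBS and shLuc with PBS, with 2 arrays each (8 in all). The shDab2 arrays come from a line made with a single hairpin, so on these arrays a difference between the lines cannot be told apart from other differences between them. The paper also measured Il6 mRNA by RT-PCR in a line made with another Dab2 hairpin, which has no arrays here. It reports more Il6 in that line too than in shLuc cells after 6 h of LPS. Neither the labels nor the methods say whether the 2 arrays of a group are separate cultures, so each p-value refers to the variation among these arrays, which may be technical.

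Colony-stimulating factors are secreted glycoproteins named for the blood cells they make grow in culture. CSF-1 (M-CSF) keeps macrophages alive through the receptor tyrosine kinase CSF1R, GM-CSF (Csf2) acts on macrophages and granulocytes through an alpha chain (Csf2ra) and the beta chain it shares with other cytokines (Csf2rb), and G-CSF (Csf3) drives neutrophil production through CSF3R. IL-6, LIF and oncostatin M share the signaling chain gp130 (Il6st) and signal through JAK kinases and STAT3, which switch on the feedback inhibitor Socs3. Macrophages that sense LPS are a known source of several of these cytokines, while their transcripts are kept short-lived by RNA-binding proteins such as tristetraprolin (Zfp36) and regnase-1 (Zc3h12a).

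The promoter letters of the ligands are shown because NF-kB and AP-1 are the factors best known to act on such genes after LPS. The windows hold the 250 bases before the RefSeq gene start on GRCm38.p6, 5′ to 3′ on the gene's strand, with motif matches in capitals. An entry was matched for 6 of the 10 genes, and Csf3, Osm, Csf1r and Csf2rb are named only.
Il6, chr5:30012864-30013113, plus strand: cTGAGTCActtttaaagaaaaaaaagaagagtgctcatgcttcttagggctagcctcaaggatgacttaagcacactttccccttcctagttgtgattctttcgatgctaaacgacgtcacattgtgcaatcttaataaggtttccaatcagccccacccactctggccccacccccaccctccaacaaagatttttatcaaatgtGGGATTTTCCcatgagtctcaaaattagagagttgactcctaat
Lif, chr11:4257318-4257567, plus strand: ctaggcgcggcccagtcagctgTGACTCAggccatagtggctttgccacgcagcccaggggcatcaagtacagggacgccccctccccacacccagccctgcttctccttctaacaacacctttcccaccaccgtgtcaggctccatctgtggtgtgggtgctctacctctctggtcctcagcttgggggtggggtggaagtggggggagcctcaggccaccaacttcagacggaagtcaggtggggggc
Csf1, chr3:107760470-107760719, minus strand: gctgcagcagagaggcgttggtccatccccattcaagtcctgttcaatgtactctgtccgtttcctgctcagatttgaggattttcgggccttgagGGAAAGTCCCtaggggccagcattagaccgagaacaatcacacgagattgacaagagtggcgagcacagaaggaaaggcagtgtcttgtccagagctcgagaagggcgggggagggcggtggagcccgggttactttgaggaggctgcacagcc
Csf2, chr11:54249900-54250149, minus strand: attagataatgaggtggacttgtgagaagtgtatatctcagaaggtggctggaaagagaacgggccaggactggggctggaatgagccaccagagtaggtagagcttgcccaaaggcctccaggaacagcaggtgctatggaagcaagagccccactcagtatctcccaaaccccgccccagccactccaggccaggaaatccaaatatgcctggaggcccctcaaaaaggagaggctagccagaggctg

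Both strands were searched for the 10-letter NF-kB motif, for AP-1 (TGANTCA), for C/EBP (TTGCNNCAA) and for the CSF box core (GAGATTCC). Positions count from the gene start, with -1 the last base before it. The Il6 window held an NF-kB match, GGGATTTTCC, at -44 to -35 and an AP-1 match, TGAGTCA, at -249 to -243. Lif held an AP-1 match, TGACTCA, at -228 to -222, and Csf1 held an NF-kB match at -154 to -145 that reads on the opposite strand. The Csf2 window held none of these letters, and sequence outside the 250 bases before the start used here was not searched. The only match to this C/EBP pattern, TTGCTACAA, was in the Csf3r window at -166 to -158. Other forms of a C/EBP site were not searched, so the other windows cannot be said to lack one. Among the 32851 windows of this length, 3.90% held the NF-kB motif, 6.75% AP-1, 1.74% C/EBP and 0.755% the CSF box core. These matches are letters in a window and say nothing of binding.

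Values below are normalized intensities, that is, background-subtracted spot intensities brought to 1 distribution over the 8 arrays. A log2 fold change was taken on log2(normalized intensity + 50), which understates the change of dim probes, and 50 is also the level under which an intensity is read as a bound. Between 42.12 and 42.27% of the probes of an array reached it, and the 2 arrays of a group correlated at 0.9949 to 0.9963 across probes. A fold given as "at least" sets the mean of the bright group against this level of 50 in the dim one. A gene was called when limma's p, adjusted over all 26423 probes, was under 0.05. The number of arrays limits the precision. Dab2, the target of the hairpin, was measured close to the level of 50, at 39.12 and 34.75 in shDab2 cells and 52.25 and 72.38 in shLuc cells with LPS, and at 59.12 and 76.0 in shDab2 cells and 91.12 and 88.12 in shLuc cells with PBS. It was lower on both shDab2 arrays under each treatment, but the difference was not called with LPS (log2 fold change -0.36, adjusted p = 0.0577) or with PBS (-0.25, adjusted p = 0.26). The difference with LPS was called under 5 of the alternative settings: with dim probes left out (adjusted p = 0.027), with no variance trend (0.0373), with an offset of 16 (-0.55, 0.0407), with a robust variance (0.0289) and without shLuc LPS replicate 1 (-0.50, 0.0318). By Western blot, the paper reports less Dab2 protein in these shDab2 cells than in shLuc cells. Of the 9 macrophage markers, 8 reached 50 in every group, and Mertk did not (2.375 to 15.31). None of the fibroblast, endothelial or epithelial markers reached it in any group. Of the 8 lymphocyte markers, Cd3e did in every group (60.62 to 77.31) and Cd79a in all but shDab2 cells with PBS (43.19 to 86.62), and of the 8 neutrophil markers only Ltf did. In whole cultures, fewer cells that make a transcript and less of it per cell cannot be told apart.

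**Figure D1:**
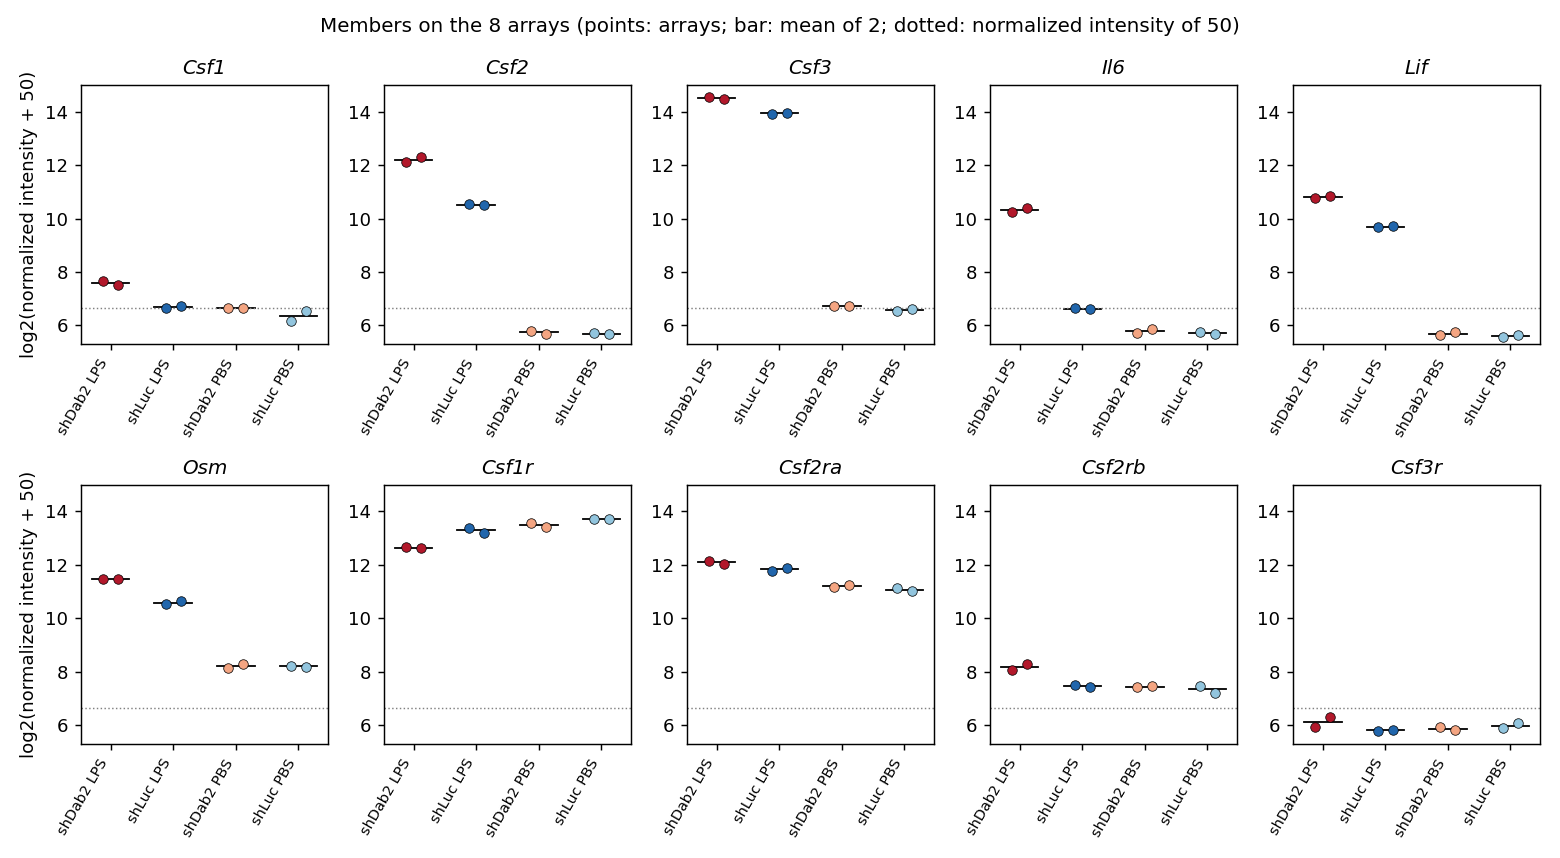
Each panel plots 1 gene as log2(normalized intensity + 50) on the 8 arrays, with a point per array, a bar at the mean of 2 and a dotted line at an intensity of 50. Csf2, Csf3, Il6, Lif and Osm are highest on the shDab2 arrays with LPS, Csf1r is lowest there, and Csf3r lies under the line on every array.

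LPS raised nearly every ligand in both lines. In shDab2 cells, 8 of the 10 genes rose and 1, Csf1r, fell, where 13.4% of all genes rose and 18.0% fell. In shLuc cells 6 rose and 1 fell, where 11.6% of all genes rose and 15.7% fell. By a log2 ratio past 1.5, with no test, 5 genes were higher with LPS in shDab2 cells (1.60% of all genes) and 4 in shLuc cells (0.912%). The median log2 fold change of the 10 genes was 2.1 in shDab2 cells and 0.85 in shLuc cells, against a median of all genes that rounds to 0 in both.

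Csf3, which encodes G-CSF, had the largest rise of all 19084 genes after LPS in both lines. Its intensity was 24025.9 and 22930.6 in shDab2 cells and 15394.5 and 15949.6 in shLuc cells with LPS, against 55.75 and 54.75 in shDab2 cells and 42.5 and 49.06 in shLuc cells with PBS. The LPS arrays stand far above every PBS array, and the shDab2 arrays with LPS stand above the shLuc arrays with LPS. In shDab2 cells the change was 7.80 ± 0.058 (log2, SE, n = 2 arrays a group; 425-fold, adjusted p = 1.66e-14), and in shLuc cells it was 7.36 ± 0.058 (at least 313-fold, adjusted p = 3.11e-14).

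Csf2, which encodes GM-CSF, was measured with LPS alone. LPS arrays read 4416.6 and 4942.5 in shDab2 cells and 1443.7 and 1394.8 in shLuc cells, and PBS arrays read 5.875 and 1.0 in shDab2 cells and 2.375 and 1.0 in shLuc cells. The 4 PBS arrays lie in the background and have no order among them. The rise ranked 4 of 19084 genes in shDab2 cells, at 6.47 ± 0.078 (at least 93.4-fold, adjusted p = 9.89e-13), and 9 in shLuc cells, at 4.83 ± 0.078 (at least 28.4-fold, adjusted p = 1.17e-11).

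Il6, the founding member of its family and an inducer of the acute phase response, separated the lines the most. With LPS it read 1148.4 and 1306.6 on the shDab2 arrays and 49.75 and 48.62 on the shLuc arrays. With PBS it read 2.5 and 7.75 in shDab2 cells and 3.375 and 1.0 in shLuc cells. Both shLuc arrays with LPS thus lie just under the level of 50, above the PBS arrays and far below the shDab2 arrays with LPS. In shDab2 cells LPS raised Il6 by 4.53 ± 0.1 (at least 24.5-fold, adjusted p = 5.47e-11). The rise in shLuc cells was called too, at 0.93 ± 0.1 (adjusted p = 3.86e-05), but both of its groups lie under 50, so it has no fold.

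Lif, known for holding mouse embryonic stem cells in self-renewal, and Osm, a regulator of inflammation and tissue repair, both lie on chromosome 11 with Csf2 and Csf3. Lif read 1714.8 and 1765.0 in shDab2 cells and 776.0 and 784.2 in shLuc cells with LPS, and between -2.0 and 3.5 on the 4 PBS arrays. Its rise was 5.12 ± 0.075 in shDab2 cells (at least 34.8-fold, adjusted p = 3.17e-12) and 4.08 ± 0.075 in shLuc cells (at least 15.6-fold, adjusted p = 2.93e-11). Osm differed from Lif in that it was measured well above 50 without LPS. It read 2769.1 and 2814.4 in shDab2 cells and 1439.1 and 1547.2 in shLuc cells with LPS, against 229.8 and 265.1 in shDab2 cells and 247.4 and 242.6 in shLuc cells with PBS. Osm rose 11.3-fold in shDab2 cells (3.26 ± 0.069, adjusted p = 4.23e-11) and 6.09-fold in shLuc cells (2.39 ± 0.069, adjusted p = 1.01e-09).

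Csf1, the growth factor that macrophages need, stayed dim. Its LPS arrays read 152.0 and 134.1 in shDab2 cells and 49.75 and 55.5 in shLuc cells, and its PBS arrays read 50.38 and 50.75 in shDab2 cells and 21.12 and 43.25 in shLuc cells. Only the shDab2 arrays with LPS are clearly above 50. The rise in shDab2 cells was 2.82-fold (0.94 ± 0.129, adjusted p = 0.000162). In shLuc cells the change of 0.33 ± 0.129 was not called (adjusted p = 0.0963), and without shLuc PBS replicate 2 it was called (0.52, adjusted p = 0.0161).

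Among the receptors, the CSF-1 receptor fell while the alpha chain of the GM-CSF receptor rose in both lines and its beta chain rose in shDab2 cells. Csf1r, a defining gene of the macrophage lineage, read 6396.1 and 6327.4 in shDab2 cells and 10581.0 and 9343.2 in shLuc cells with LPS, against 11977.1 and 10867.5 in shDab2 cells and 13432.2 and 13548.0 in shLuc cells with PBS. The groups run in that order from low to high, and the shLuc LPS and shDab2 PBS arrays come closest without overlapping. LPS lowered it 1.79-fold in shDab2 cells (log2 fold change -0.84 ± 0.072, adjusted p = 3.61e-06) and 1.36-fold in shLuc cells (-0.44 ± 0.072, adjusted p = 0.000821).

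Csf2ra, the alpha chain that binds GM-CSF, read 4506.5 and 4121.1 in shDab2 cells and 3489.9 and 3773.1 in shLuc cells with LPS, against 2231.6 and 2359.6 in shDab2 cells and 2171.0 and 2018.4 in shLuc cells with PBS. It rose 1.88-fold in shDab2 cells (0.90 ± 0.067, adjusted p = 1.27e-06) and 1.73-fold in shLuc cells (0.78 ± 0.067, adjusted p = 6.67e-06). The LPS arrays of each line stood above its PBS arrays.

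Csf2rb, the beta chain shared with the receptors for IL-3 and IL-5, read 220.4 and 259.1 in shDab2 cells with LPS, and 131.9 and 124.4 in shLuc cells with LPS. PBS arrays read 120.9 and 126.2 in shDab2 cells and 128.9 and 98.88 in shLuc cells, so 3 of the 4 groups overlap and the shDab2 LPS arrays stand above them. The rise was 1.93-fold in shDab2 cells (0.74 ± 0.105, adjusted p = 0.000215), and in shLuc cells the change was 0.13 (95% interval -0.11 to 0.36, adjusted p = 0.488). Its dimmer probe read 73.25 and 84.06 in shDab2 cells and 57.12 and 64.12 in shLuc cells with LPS, and 46.62 to 62.5 with PBS. This probe was called for LPS in shDab2 cells (0.40, adjusted p = 0.0122) and not in shLuc cells (0.04, adjusted p = 0.862). Csf3r, the receptor for G-CSF on cells of the neutrophil lineage, read under 50 on all 8 arrays (5.5 to 29.94) and has only a bound. Its change with LPS was not called in shDab2 cells (0.26, adjusted p = 0.164) or in shLuc cells (-0.17, adjusted p = 0.411). The call in shDab2 cells appeared without shDab2 LPS replicate 1 (0.44, adjusted p = 0.0141), with both groups still under 50. Of the 8 neutrophil markers, Ltf reached 50 (109.4 to 154.2), Mpo came to 11.88 to 33.72, and S100a8, S100a9 and Elane lay between 0.5 and 15.44.

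**Figure D2:**
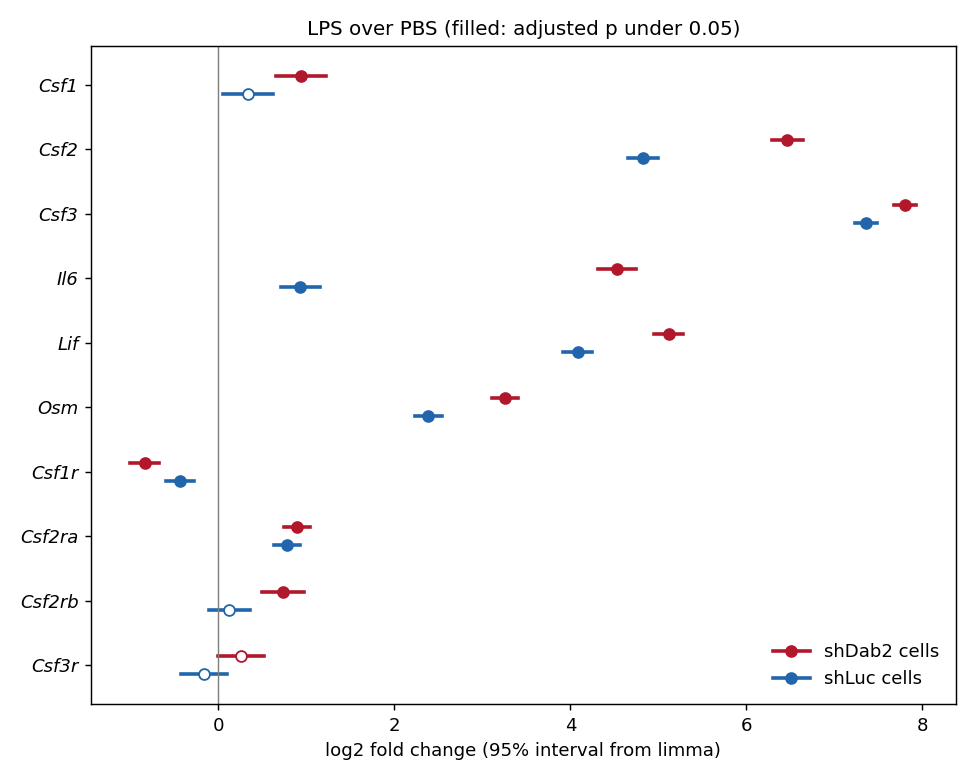
Log2 fold change of LPS over PBS for each gene, with its 95% interval from limma, in shDab2 cells and in shLuc cells; filled points passed an adjusted p of 0.05. Csf3 lies farthest right in both lines, Il6 shows the widest gap between them, and Csf1r lies left of 0 in both.

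Set against shLuc cells under LPS, shDab2 cells had more of all 6 ligands and of both GM-CSF receptor chains, and less Csf1r. That is 8 genes higher and 1 lower of 10, where 9.07% of all genes were higher and 11.6% lower, and only Csf3r was not called (0.32, adjusted p = 0.101). Without shDab2 LPS replicate 1 it was (0.50, adjusted p = 0.0128), with all arrays under 50. Il6 had the largest rise of all 19084 genes between the lines on the log2 scale with 50 added, by 3.68 ± 0.1 (95% interval 3.46 to 3.91, at least 24.5-fold, adjusted p = 8.57e-09). Csf2 followed at 3.29-fold (1.69 ± 0.078, adjusted p = 1.84e-07). These 2 genes were also the only ones past a log2 ratio of 1.5, which 0.309% of all genes passed upwards. For Il6 the paper reports a smaller fold between these lines after LPS by RT-PCR than the arrays gave.

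The other ligands differed less and kept apart on every array. Lif was 2.23-fold higher (1.11 ± 0.075, adjusted p = 2.73e-06), Osm 1.87-fold (0.88 ± 0.069, adjusted p = 7.98e-06) and Csf3 1.5-fold (0.58 ± 0.058, adjusted p = 4.24e-05). Csf1 was 2.71-fold higher with 1 shLuc array raised to the level of 50 (0.91 ± 0.129, adjusted p = 0.000514). Csf1r was 1.56-fold lower (-0.64 ± 0.072, adjusted p = 9.84e-05), so the ligand and its receptor differed in opposite directions. Other macrophage markers also differed in level between the lines and not all one way: Adgre1 averaged 2571.6 in shDab2 cells and 570.7 in shLuc cells with LPS, and 1268.8 in shDab2 cells and 430.1 in shLuc cells with PBS, while Cd68 averaged 14467.8 in shDab2 cells and 19104.8 in shLuc cells with LPS. The summed level of the 9 macrophage markers ran from 65606.2 to 72656.5 in shDab2 cells and from 46277.1 to 78379.2 in shLuc cells with LPS, and its part in the Csf1r difference was not tested. The GM-CSF receptor showed the smallest called difference, 1.19-fold for Csf2ra (0.25 ± 0.067, adjusted p = 0.0278), and its call was lost without shDab2 LPS replicate 1 (0.18, adjusted p = 0.192) and without shLuc LPS replicate 1 (0.19, adjusted p = 0.178). For Csf2rb the probes disagreed: the brighter was 1.87-fold higher (0.70 ± 0.105, adjusted p = 0.000751) and the dimmer was not called (0.22, adjusted p = 0.199). The summed level of the 5 dendritic cell markers moved with these differences, at 970.1 to 983.2 in shDab2 cells and 212.5 to 247.8 in shLuc cells with LPS, and 301.5 to 334.2 in shDab2 cells and 139.0 to 147.0 in shLuc cells with PBS. That sum is mostly Itgax, the integrin CD11c that macrophages also make, and Zbtb46 was the only other marker over 50, while Flt3, Xcr1 and Siglech were near 0 (0.25 to 4.875). The part of these markers in the differences was not tested.

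With PBS the lines did not differ in any of the 10 genes by limma's adjusted p, where 5.65% of all genes were called higher and 6.40% lower in shDab2 cells. At limma's unadjusted p under 0.05, 3 of the 10 passed (Csf1 and Csf3 higher, Csf1r lower). The share of all genes passing limma's unadjusted p was not counted. The methods' t-test called 0 of the 10. Of all genes, its unadjusted p called 8.04% higher and 9.33% lower, and its adjusted p called 0 and 1 gene. Csf1r came nearest, 1.18-fold lower in shDab2 cells (-0.24, 95% interval -0.4 to -0.08, adjusted p = 0.0609), and it was called when either shLuc LPS array was left out of the shared estimate of spread (adjusted p = 0.033 and 0.0327). For Osm, which is well measured with PBS, the interval ran from -0.14 to 0.16 around 0.01 (adjusted p = 0.971). Csf2ra differed by 0.13 (95% interval -0.02 to 0.28, adjusted p = 0.326). Csf2, Il6, Lif and Csf3r lay under 50 in both lines with PBS, so a difference between them there was not detectable on these arrays. Csf1 (0.30, adjusted p = 0.205) and Csf3 (0.14, adjusted p = 0.204) lay between 50.38 and 55.75 on the shDab2 arrays and under 50 on the shLuc arrays. With no normalization between arrays, 5 of the 10 were called higher in shDab2 cells with PBS (Csf1, Csf3, Csf2ra, Csf2rb and Osm), and the median of all genes was then 0.13. The share of all genes called under that setting was not counted, so this 5 has no background to be read against.

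**Figure D3:**
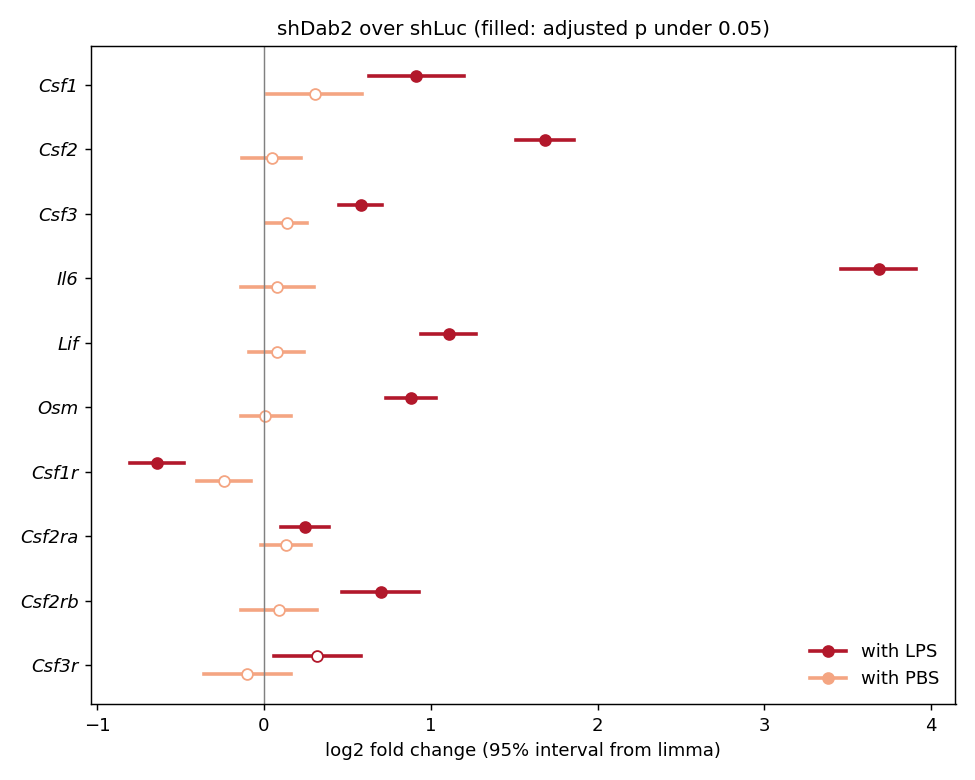
Log2 fold change of shDab2 over shLuc cells for each gene, with its 95% interval from limma, under LPS and under PBS; filled points passed an adjusted p of 0.05. Under LPS, Il6 and Csf2 lie farthest right and Csf1r left of 0, and under PBS no point is filled.

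Whether LPS acted more strongly in shDab2 than in shLuc cells was tested as the difference of the 2 log2 responses. This was called higher for 6 of the 10 genes and lower for 0, where 2.72% of all genes were called higher and 3.08% lower. At limma's unadjusted p under 0.05, 9 of the 10 passed, and Csf1r was the only 1 lower. The share of all genes passing it was not counted. Il6 had the second highest value of all genes, 3.61 ± 0.142 (adjusted p = 2.52e-07). Csf2 (1.64 ± 0.11, adjusted p = 1.33e-05), Lif (1.03 ± 0.106, adjusted p = 0.000241) and Osm (0.87 ± 0.098, adjusted p = 0.000462) followed. All PBS arrays of Il6, Csf2 and Lif lay in the background. For these genes the value nearly repeats the difference between the lines with LPS (3.68, 1.69 and 1.11) and is no separate result. Csf3 responded more strongly by only 0.44 ± 0.082 (adjusted p = 0.00992), although its response was the largest in both lines on the scale with 50 added. This call was lost without shDab2 LPS replicate 1 (0.40). Both shLuc PBS arrays of Csf3 lay under 50 (42.5 and 49.06), so its fold in shLuc cells is a bound. As the folds were 425 in shDab2 cells and at least 313 in shLuc cells, which was larger cannot be said. Csf2rb was called at 0.61 ± 0.148 (adjusted p = 0.0414), but its dimmer probe was not (0.36, adjusted p = 0.244). The Csf2rb call was also lost without any 1 of 6 of the 8 arrays: shDab2 LPS replicate 2, either shDab2 PBS array, either shLuc LPS array, or shLuc PBS replicate 1 (0.472 to 0.739 over all 8, adjusted p up to 0.158). Csf1r fell just outside the threshold at -0.40 (95% interval -0.62 to -0.18, adjusted p = 0.0503), and it was called without shDab2 PBS replicate 2 (-0.48, adjusted p = 0.0436) and without shLuc LPS replicate 2 (-0.48, adjusted p = 0.0267). Csf1 was not called (0.61, adjusted p = 0.1), but it was without shLuc PBS replicate 1 (0.80, adjusted p = 0.0312), with a robust variance (adjusted p = 0.0466) and with a floor of 50 (1.42, adjusted p = 0.0208). Also not called were Csf3r (0.42, adjusted p = 0.245, and 0.60 with adjusted p = 0.0485 without shDab2 LPS replicate 1) and Csf2ra (0.12, 95% interval -0.1 to 0.33, adjusted p = 0.648).

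Of 10 other ligands and receptors of the colony-stimulating and common beta chain families, 1 rose with LPS in shDab2 cells and 2 in shLuc cells, against the 13.4% and 11.6% of all genes that rose, so these counts set the list apart in neither line. Kitl, the ligand of the Kit receptor, averaged 119.6 ± 6.806 in shDab2 cells and 70.38 ± 1.414 in shLuc cells with LPS, against 13.94 ± 1.503 in shDab2 cells and 21.69 ± 2.74 in shLuc cells with PBS (SD, n = 2). It rose in both lines, was higher in shDab2 cells with LPS (0.49, adjusted p = 0.00432), and its response differed by 0.66 (adjusted p = 0.0191). This last call was lost without either shDab2 PBS array, shLuc LPS replicate 1 or shLuc PBS replicate 1 (adjusted p up to 0.0903). Flt3l, the dendritic cell growth factor FLT3 ligand, averaged 228.4 ± 16.26 in shDab2 cells and 149.0 ± 15.38 in shLuc cells with LPS and was the other gene called between the lines there (0.48, adjusted p = 0.00238). Il3 stayed under 50 in all groups and was called only for LPS in shLuc cells (0.48, adjusted p = 0.00927), a call lost without shLuc PBS replicate 1 (0.40). Its responses did not differ between the lines by the test (-0.216, adjusted p = 0.601).

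Of 13 measured other IL-6 family genes, 3 rose and 2 fell with LPS in shDab2 cells, and 5 rose and 2 fell in shLuc cells. The shares of all genes were 13.4% rising and 18.0% falling in shDab2 cells and 11.6% and 15.7% in shLuc cells, so the falls are near the background. Il27 and Ebi3, whose products pair to form interleukin 27, both rose. Il27 averaged 855.5 ± 4.11 in shDab2 cells and 453.7 ± 6.143 in shLuc cells with LPS, against 61.0 ± 4.419 in shDab2 cells and 52.41 ± 4.729 in shLuc cells with PBS (SD, n = 2), and its response differed between the lines by 0.73 (adjusted p = 0.00228). Ebi3 averaged 2342.8 ± 143.6 in shDab2 cells and 1932.9 ± 26.47 in shLuc cells with LPS, and its response did not differ by the test (0.17, adjusted p = 0.386). Il11 was higher in shDab2 cells with LPS as well (0.71, adjusted p = 0.00108). Ctf1, which encodes cardiotrophin-1, was called only for LPS in shLuc cells (0.70, adjusted p = 0.00386). In shDab2 cells its change was 0.415 (adjusted p = 0.0553), and the responses did not differ by the test (-0.285, adjusted p = 0.583). The receptor genes Il6ra and Lifr were called lower with LPS in both lines, Lifr at intensities around 50 or under. Il6ra, the chain that binds IL-6, was lowered by LPS in shDab2 cells (-1.31, adjusted p = 8.8e-06) and in shLuc cells (-1.12, adjusted p = 5.04e-05). It averaged 181.0 ± 23.29 in shDab2 cells and 402.5 ± 77.16 in shLuc cells with LPS, and 522.2 ± 28.9 in shDab2 cells and 928.9 ± 140.4 in shLuc cells with PBS, and it was lower in shDab2 cells with LPS (-0.96, adjusted p = 0.000279) and with PBS (-0.77, adjusted p = 0.00266). Lifr, the LIF receptor, was near 50 with PBS (49.31 ± 0.7955 in shDab2 cells and 51.19 ± 6.806 in shLuc cells) and near 0 with LPS (1.156 ± 0.221 in shDab2 cells and 1.188 ± 3.094 in shLuc cells). All its shDab2 arrays lay under 50, so the change there has no fold, and in shLuc cells the fold is at least 1.06.

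**Figure D4:**
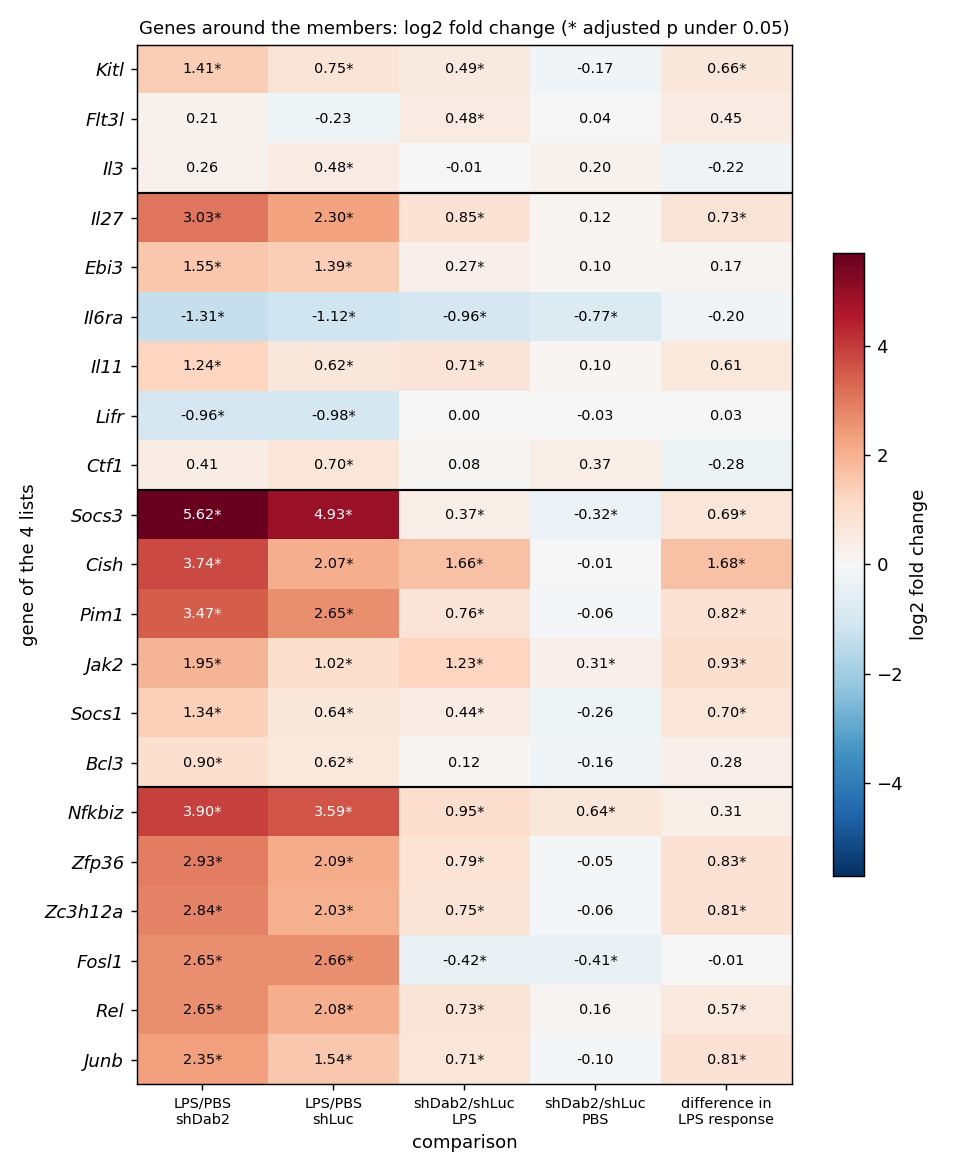
Log2 fold changes (colour and number) of 21 genes of the 4 lists in the 5 comparisons, with a star for an adjusted p under 0.05 and black lines between the lists. Socs3, Cish, Pim1, Zfp36 and Zc3h12a rose with LPS in both lines and rose more in shDab2 cells, while Il6ra is negative in each comparison.

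Of 19 measured genes that relay or restrain signals from these receptors, 10 rose and 3 fell with LPS in shDab2 cells, 7 rose and 2 fell in shLuc cells, and between the lines with LPS the shDab2 cells were higher for 8 and lower for 2. Of all genes, 13.4% rose and 18.0% fell in shDab2 cells, 11.6% rose and 15.7% fell in shLuc cells, and between the lines 9.07% were higher and 11.6% lower, so the counts of genes lower are near the background. Socs3, the feedback inhibitor of gp130 and G-CSF receptor signaling, averaged 6001.1 ± 294.0 in shDab2 cells and 4626.4 ± 101.6 in shLuc cells with LPS, against 72.88 ± 1.768 in shDab2 cells and 104.1 ± 15.11 in shLuc cells with PBS (SD, n = 2). Its response was 5.62 in shDab2 cells and 4.93 in shLuc cells, and the responses differed by 0.69 (adjusted p = 0.00291). Socs3 was higher in shDab2 cells with LPS (0.371, adjusted p = 0.00432) and lower with PBS (-0.323, adjusted p = 0.0166), so the 0.69 holds both. The PBS call was lost with no normalization between arrays (-0.083, adjusted p = 0.516) and under several other settings. Cish, a STAT5 target induced by GM-CSF in blood cells, showed the largest difference in response among these 19, 1.68 ± 0.139 (adjusted p = 5.3e-05), with 1627.2 ± 13.61 in shDab2 cells and 479.8 ± 24.7 in shLuc cells with LPS, and 75.69 ± 11.4 in shDab2 cells and 77.06 ± 17.06 in shLuc cells with PBS. Jak2, the kinase attached to the GM-CSF receptor, was higher in shDab2 cells with LPS (1.23, adjusted p = 9.87e-07) and with PBS (0.31, adjusted p = 0.0199), and its response differed by 0.93 (adjusted p = 0.000388). The PBS call was lost without either shDab2 PBS array or shLuc PBS replicate 2 (adjusted p up to 0.153). Pim1, a kinase gene switched on by STATs, differed in response by 0.82 (adjusted p = 0.000219) and Socs1 by 0.70 (adjusted p = 0.00381). Bcl3 rose with LPS in both lines, and its responses did not differ by the test (0.28, adjusted p = 0.345).

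Of 27 measured regulators of the transcription and decay of these transcripts, 16 rose and 4 fell with LPS in shDab2 cells, 18 rose and 3 fell in shLuc cells, and between the lines with LPS the shDab2 cells were higher for 13 and lower for 6. Of all genes, 13.4% rose and 18.0% fell in shDab2 cells, and 11.6% rose and 15.7% fell in shLuc cells. Between the lines with LPS, 9.07% of all genes were higher and 11.6% lower. The falls with LPS are thus near or under the background, while the 6 of 27 lower between the lines lie above it. Nfkbiz encodes IkB-zeta, a nuclear cofactor that Il6 needs in macrophages. It averaged 3943.2 ± 117.4 in shDab2 cells and 2010.6 ± 79.46 in shLuc cells with LPS, against 216.9 ± 4.95 in shDab2 cells and 121.0 ± 4.596 in shLuc cells with PBS (SD, n = 2), and was higher in shDab2 cells under both treatments (0.95 with LPS, adjusted p = 1.71e-06, and 0.64 with PBS, adjusted p = 6.87e-05). Its response to LPS was not called as different (0.31, adjusted p = 0.0661). Rel, the NF-kB subunit c-Rel, and Junb, an AP-1 subunit, responded more strongly in shDab2 cells, by 0.57 (adjusted p = 0.00644) and 0.81 (adjusted p = 0.0154). The Junb call was lost without shDab2 LPS replicate 2, shDab2 PBS replicate 2 or shLuc LPS replicate 2 (adjusted p up to 0.0672). Fosl1, another AP-1 subunit, was instead lower in shDab2 cells with LPS (-0.42, adjusted p = 0.00293) and with PBS (-0.41, adjusted p = 0.00638; -0.31 and 0.0606 without shDab2 PBS replicate 1), and its response differed by -0.01 ± 0.11 (adjusted p = 0.981). Zfp36 and Zc3h12a, whose products destroy transcripts of several of these cytokines, rose with LPS and rose more in shDab2 cells, by 0.83 (adjusted p = 0.00161) and 0.81 (adjusted p = 0.00143), calls that a floor of 50 in place of the offset ended (adjusted p = 0.102 and 0.0518). Zfp36 averaged 3005.5 ± 133.4 in shDab2 cells and 1722.2 ± 85.16 in shLuc cells with LPS, and Zc3h12a averaged 780.0 ± 30.01 in shDab2 cells and 443.3 ± 15.95 in shLuc cells.

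Other genes of the array followed individual members closely over the 8 arrays, by Pearson's r of the log2 values among 1232 genes that reached 50 in a group and varied enough. As the 8 points fall into LPS and PBS arrays, this is only a description. The 3 nearest to Csf3 were Gstt4 (0.9995), Npl (0.999) and Plekho2 (0.9984). The 3 nearest to Lif were Pim1 (0.9995), Zfp703 (0.9995) and Ehd1 (0.9993). Nearest to Il6 were Herc6 (0.9983), Gbp2b (0.9977) and Ccl22 (0.9967), which were also highest on the shDab2 arrays with LPS. Unlike Il6, Herc6 was well above 50 in all groups, averaging 1059.9 in shDab2 cells and 382.9 in shLuc cells with LPS, and 296.1 in shDab2 cells and 276.8 in shLuc cells with PBS. Gbp2b averaged 1831.8 in shDab2 cells and 139.4 in shLuc cells with LPS, and 77.62 in shDab2 cells and 63.16 in shLuc cells with PBS. The chemokine gene Ccl22 averaged 280.2 in shDab2 cells and 44.62 in shLuc cells with LPS, and lay under 50 in both lines with PBS (17.12 in shDab2 cells and 16.38 in shLuc cells). Nearest to Csf1r were Dctpp1 (0.995), Lyl1 (0.9948) and Kif18a (0.9932). Lyl1, a transcription factor gene of blood cells, averaged 424.9 in shDab2 cells and 770.3 in shLuc cells with LPS, and 1021.8 in shDab2 cells and 1285.0 in shLuc cells with PBS, the same order of the 4 groups as Csf1r.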

How the data were processed

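RNA of RAW264.7 shDab2 and shLuc cells was labelled with Cy5 and hybridised to 8 one-colour Phalanx mouse OneArrays. The authors deposited a linear intensity for each of 26423 probes per array, with the background subtracted. These intensities were not normalized between arrays: medians ran from 20 to 37 and 75th percentiles from 209 to 319. The software and normalization used for the arrays are not given in the sources used here. A second deposited table of group means was not used. Of the probes, 21876 carry 1 gene symbol and 4547 none.

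Intensities were quantile-normalized, 50 was added and log2 was taken, so a change in total RNA per cell cannot be seen. A mean per group was fitted with limma 3.58.1 in R 4.3.3 (variance trend, 4 residual and 6.7 prior degrees of freedom), with Benjamini-Hochberg adjustment over all probes. The fit was tested on simulated data with known changes. The alternatives were another scaling, offset, floor, filter, variance model, test, threshold or probe, the replicate number as a block, and each array left out.

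The genes and lists were chosen with earlier results of these data known. Named from each list were up to 6 called genes with the largest changes, and for Csf3, Il6, Lif and Csf1r the 3 genes most like them. Some genes of the lists are not reported here.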

Additional observations from a re-analysis of the deposited data

Results flagged for a closer look

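For 6 of the 10 genes the LPS response differed between shDab2 and shLuc cells by limma's test of the difference itself, as log2 response in shDab2 cells minus that in shLuc cells. The differences were 3.61 for Il6, 1.64 for Csf2, 1.03 for Lif, 0.87 for Osm, 0.61 for Csf2rb and 0.44 for Csf3. The Csf2rb call was lost after scaling to the 75th percentile (limma's adjusted p = 0.0691) and with no normalization (0.121). It was also lost with no variance trend (0.0516) and with an offset of 16 (0.0508). Each shDab2 array with LPS was above each shLuc array with LPS for these 6 genes, by their brightest probe. For Il6, Csf2 and Lif the PBS arrays lay in the background, so their values nearly repeat the difference between the lines with LPS. For Csf3 both shLuc PBS arrays lay under 50, so its fold in shLuc cells is only a lower bound. Groups of 2 arrays are too small for a check of single arrays that stand apart.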

How the results depend on the processing

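Of 871 values recomputed for the 10 genes, 803 kept their direction and side of the threshold, 36 lost the call, 25 gained one and 7 turned sign, none of those 7 called. Of 1253 values of called genes named from the lists, 1178 kept both, 75 lost the call and none turned sign. Of 704 recomputed counts of called list genes, 611 stayed within 1.5 times, and outside the methods' t-test the signal relay genes called higher in shDab2 than in shLuc cells with LPS (8) ran from 4 to 10 and the transcription and decay regulators (13) from 9 to 16. With the methods' t-test after Benjamini-Hochberg adjustment, LPS gave 5 higher and 0 lower in shDab2 cells and 4 higher and 0 lower in shLuc cells, and the lines with LPS gave 0 higher and 0 lower (7 and 1 unadjusted). That test called 3.29% of all genes higher and 3.67% lower with LPS in shDab2 cells. In shLuc cells these shares were 1.06% and 0.776%. Between the lines with LPS it called 0 of all genes (9.05% higher and 11.7% lower unadjusted), so its 0 there says nothing of the 10 genes. By the log2 ratio of 1.5, 5 were higher and 0 lower in shDab2 cells, 0 lower in shLuc cells, and 2 higher and 0 lower between the lines with LPS. Of all genes, 0.734% were lower past it in shDab2 cells, 0.288% in shLuc cells and 0.0734% between the lines. A count of 0 lower thus says nothing of the 10 genes. With no normalization between arrays, 5 genes were higher in shDab2 cells with PBS, with the share of all genes not counted, and Csf2rb changed by -0.027 with LPS in shLuc cells. Csf1r was the 1 gene called lower in shDab2 cells with PBS after scaling to the 75th percentile, without dim probes and with a robust variance, and the 1 called lower for the difference in response without dim probes, without normalization, with an offset of 16 and with a robust variance. With the replicate block, the difference in response was called lower for 1 gene, Csf1r, and not called for Csf2rb, and no other call of the 10 genes changed. The replicate numbers mark no shared origin in the labels, and same-numbered arrays deviated together by -0.0597 to 0.106 only. With a floor of 50, the calls of Csf2ra between the lines with LPS (adjusted p = 0.16) and of Csf2rb (0.27) and Osm (0.0534) for the difference in response were lost, as was that of Csf2ra with no variance trend (0.0649), while that of Csf1 for the difference in response was gained with the floor (1.422, adjusted p = 0.0208) and with a robust variance (0.606, 0.0466), and the Dab2 difference in response was 0.12. The floor also ended the calls for the difference in response of Socs3 (0.103), Cish (0.0784), Il27 (0.0743), Rel (0.0691), Junb (0.271), Zfp36 (0.102) and Zc3h12a (0.0518). It ended those for LPS in shLuc cells of Lifr (0.256) and Ctf1 (0.0756). Between the lines it ended those of Il11, Socs3, Fosl1 and Junb with LPS (0.065 to 0.153) and of Il6ra, Jak2, Socs3 and Fosl1 with PBS (0.0894 to 0.135). The dimmer Csf2rb probe gave -0.141 between the lines with PBS. With each array left out in turn, a lone array being taken to vary like the other groups, the genes called lower in shDab2 cells with PBS ran from 0 to 1, as did those called lower for the difference in response. Values that turned sign then were Csf2rb with LPS in shLuc cells (-0.007 to 0.258), Csf2 (-0.018 to 0.11), Csf2rb (-0.044 to 0.22) and Osm (-0.077 to 0.093) between the lines with PBS, and the Dab2 difference in response (-0.245 to 0.019). The causes of these changes were not tested. Csf3r gave no value with the floor or the dim filter. Intensities under 50 limit what can be said of Csf2, Il6 and Lif with PBS, of Csf3 in shLuc cells with PBS and of Csf3r throughout.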
